A study of Rattus norvegicus with 12 samples.

Results

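Glycolysis genes and well-known target genes of hypoxia-inducible factor were followed in 12 RNA sequencing libraries of rat nucleus pulposus cells, the cells of the soft centre of the spinal disc. The members are 33 genes chosen by symbol: glucose transporters, the enzymes of glycolysis, genes of pyruvate and lactate handling, fructose bisphosphate regulators, and hypoxia targets outside glycolysis. Of the 33, 31 were found in at least 1 of the 3 deposited tables, among 13546 genes in all. 30 of them stood in all 3 tables and 29 were abundant enough to be tested in each comparison. Tpi1 and Eno2 were not analysed here, Car12 stood in 1 table only, and Slc2a3 was too low to be tested.

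All cells were primary cells of Wistar rats, grown out of explants in medium with serum and transduced with lentivirus. In the PLKO groups the virus carried a control shRNA vector, and in the shTon groups an shRNA against TonEBP, the transcription factor encoded by Nfat5 that serves adaptation to high osmolarity. Cells were left untreated (CTR) or received the inflammatory cytokine TNF-a at 50 ng/mL for 24 h (TNF). This gave 4 groups of 3 libraries, PLKO_CTR, PLKO_TNF, shTon_CTR and shTon_TNF, numbered as sets 1 to 3 by the sample titles. The labels give no animal age and do not define a set. Set differences were removed in the main fits, so their p-values cover the spread left between these libraries, which may be technical. The design asks which genes answer to TNF-a and whether TonEBP is needed for it.

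The nucleus pulposus has almost no blood supply, and its cells live at low oxygen and draw their energy mainly from glycolysis. Glucose enters through facilitated transporters, is phosphorylated by hexokinase, is committed by phosphofructokinase and ends as pyruvate, most of which lactate dehydrogenase turns into lactate for export by monocarboxylate transporters. Hypoxia-inducible factor, a dimer of an oxygen-regulated alpha subunit with Arnt, binds short sites with the core ACGTG or GCGTG and drives many of these genes in other tissues. In disc cells its alpha subunit is known to be present in normal oxygen as well.

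Levels are normalised reads: whole reads per gene divided by 1 factor per library, recovered from the deposited values and put on 1 joint scale over the 12 libraries. Gene length is not removed, so levels were compared between libraries and not between genes. Fold changes are log2 differences fitted by limma on log2(normalised reads + 1) with the set as a block, and a gene passed at a Benjamini-Hochberg adjusted p under 0.05 over all genes tested. Each library had between 7160042 and 18645538 reads on the genes listed. Nfat5 was at 685, 1363 and 1818 in PLKO_CTR, 642, 1092 and 483 in PLKO_TNF, 458, 457 and 288 in shTon_CTR and 1695, 499.7 and 232 in shTon_TNF, listed by set. It was lower in the shTon library of 5 of 6 same-set pairs, and in set 1 the library labelled shTon_TNF went against its label. By limma its fall with knockdown passed in neither comparison. The log2 fold change was -1.61, SE 0.33, adjusted p = 0.0963 without TNF-a and -0.26, SE 0.44, adjusted p = 0.799 with it. Every result with shTon_TNF libraries rests on them as labelled. For members, the calls that change without set 1 or without that library are named with the results. For single genes outside the members such values are not given, so whether their calls hold there is not shown. Skeletal muscle markers differed most among sets: the sum of 14 such genes was 42571 to 96333 normalised reads in set 1, 16484 to 29887 in set 2 and 372 to 722 in set 3. Of 16 markers of nucleus pulposus and notochord cells 9 were in the tables. Their sum was 13254 to 21378 in set 1, 8085.5 to 12000 in set 2 and 4505 to 9057 in set 3. Krt8, a keratin of these cells, ran the other way and was highest in the 4 libraries of set 3, at 209, 122 and 2278 in PLKO_CTR, 64.2, 68.3 and 1329 in PLKO_TNF, 194, 192 and 2163 in shTon_CTR and 93.9, 110.0 and 1364 in shTon_TNF. T, Krt19 and Shh, and the chondrocyte genes Acan, Col2a1 and Sox9, were not analysed here. Since these are bulk cultures, fewer cells of a type and less RNA per cell cannot be told apart.

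Promoter windows of the members are shown first, because many of the members share a regulator by reputation. Whether it had a part in any change below was not tested. RefSeq windows of the GRCr8 build, from 250 bases before to 50 bases after the transcription start, were found for 29 of the 33 members. A gene with more than 1 window counted as holding a motif if any of them did. The core ACGTG was present on either strand in 19 of the 29 (65.5%), against 20.9% of 27457 genes with a window. GCGTG was present in 14 (48.3%, against 32.4%), and either core in 22 (75.9%, against 44.6%). The E-box CACGTG, which contains ACGTG on both strands, was found in 5 (17.2%, against 7.08%). The consensus site of TonEBP, called TonE, was found in 1 member window (3.45%, against 6.49%), that of Pgam1. The consensus site of NF-kB was found in 5 (17.2%, against 8.16%): Car9, Eno2, Hk1, Pfkfb3 and Pgam1. These are matches of letters in a short window, and binding was not measured. 5 windows are printed. They are those of 4 of the 9 members that fell with knockdown when both treatments were averaged (Slc2a1, Slc16a1, Pgam1 and Bnip3), and that of Car9, which rose. They lie at chr5:138002272-138002571 (plus strand), chr2:194812410-194812709 (plus strand), chr1:250672902-250673201 (plus strand), chr1:203154913-203155212 (minus strand) and chr5:62558774-62559073 (plus strand) of GRCr8. Each is written 5′ to 3′ on the strand of its gene, and capitals mark ACGTG or GCGTG on either strand.
Slc2a1: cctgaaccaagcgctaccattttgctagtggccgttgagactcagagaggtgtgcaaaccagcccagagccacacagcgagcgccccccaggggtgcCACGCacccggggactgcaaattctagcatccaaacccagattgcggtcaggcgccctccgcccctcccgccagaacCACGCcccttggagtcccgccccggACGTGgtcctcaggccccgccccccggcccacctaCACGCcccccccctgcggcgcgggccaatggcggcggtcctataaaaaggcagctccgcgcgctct
Slc16a1: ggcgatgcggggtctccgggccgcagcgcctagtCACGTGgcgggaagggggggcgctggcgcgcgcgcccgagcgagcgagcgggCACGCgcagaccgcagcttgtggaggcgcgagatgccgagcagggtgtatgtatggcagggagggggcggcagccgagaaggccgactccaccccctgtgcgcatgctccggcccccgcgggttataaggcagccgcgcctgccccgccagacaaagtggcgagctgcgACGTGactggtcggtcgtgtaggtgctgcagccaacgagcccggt
Pgam1: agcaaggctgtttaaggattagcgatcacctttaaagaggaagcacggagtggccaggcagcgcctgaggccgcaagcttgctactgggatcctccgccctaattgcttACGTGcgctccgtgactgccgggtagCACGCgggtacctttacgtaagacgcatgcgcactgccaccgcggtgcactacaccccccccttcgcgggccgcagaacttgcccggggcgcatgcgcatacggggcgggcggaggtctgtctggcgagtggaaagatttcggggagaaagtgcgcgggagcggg
Bnip3: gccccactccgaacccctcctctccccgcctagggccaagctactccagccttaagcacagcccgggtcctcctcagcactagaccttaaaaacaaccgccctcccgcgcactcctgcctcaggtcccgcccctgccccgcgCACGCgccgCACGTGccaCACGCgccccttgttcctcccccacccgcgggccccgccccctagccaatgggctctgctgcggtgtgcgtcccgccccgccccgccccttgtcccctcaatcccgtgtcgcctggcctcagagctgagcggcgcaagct
Car9: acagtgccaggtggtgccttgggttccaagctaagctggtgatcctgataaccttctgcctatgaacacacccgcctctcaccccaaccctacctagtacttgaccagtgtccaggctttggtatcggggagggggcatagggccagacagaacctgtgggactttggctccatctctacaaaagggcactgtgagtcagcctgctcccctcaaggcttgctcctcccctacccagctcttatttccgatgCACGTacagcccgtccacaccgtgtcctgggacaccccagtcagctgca
The window of Slc2a1 held 4 matches and that of Slc16a1 also 4, of which an overlapping pair formed an E-box. Bnip3 held 4 within a short stretch, between 108 and 90 bases before the start. Pgam1 held 2, and Car9 held 1, which begins 2 bases past the start. Vegfa, Adm, Pkm, Hk2, Slc16a3, Pfkfb4 and Tpi1 had no match of either core in these windows, which says nothing of sites elsewhere. Of these, Vegfa, Adm and Pkm also fell in the averaged knockdown contrast. So did Aldoc and Pfkfb3, whose windows, not printed, held matches.

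**Figure D1:**
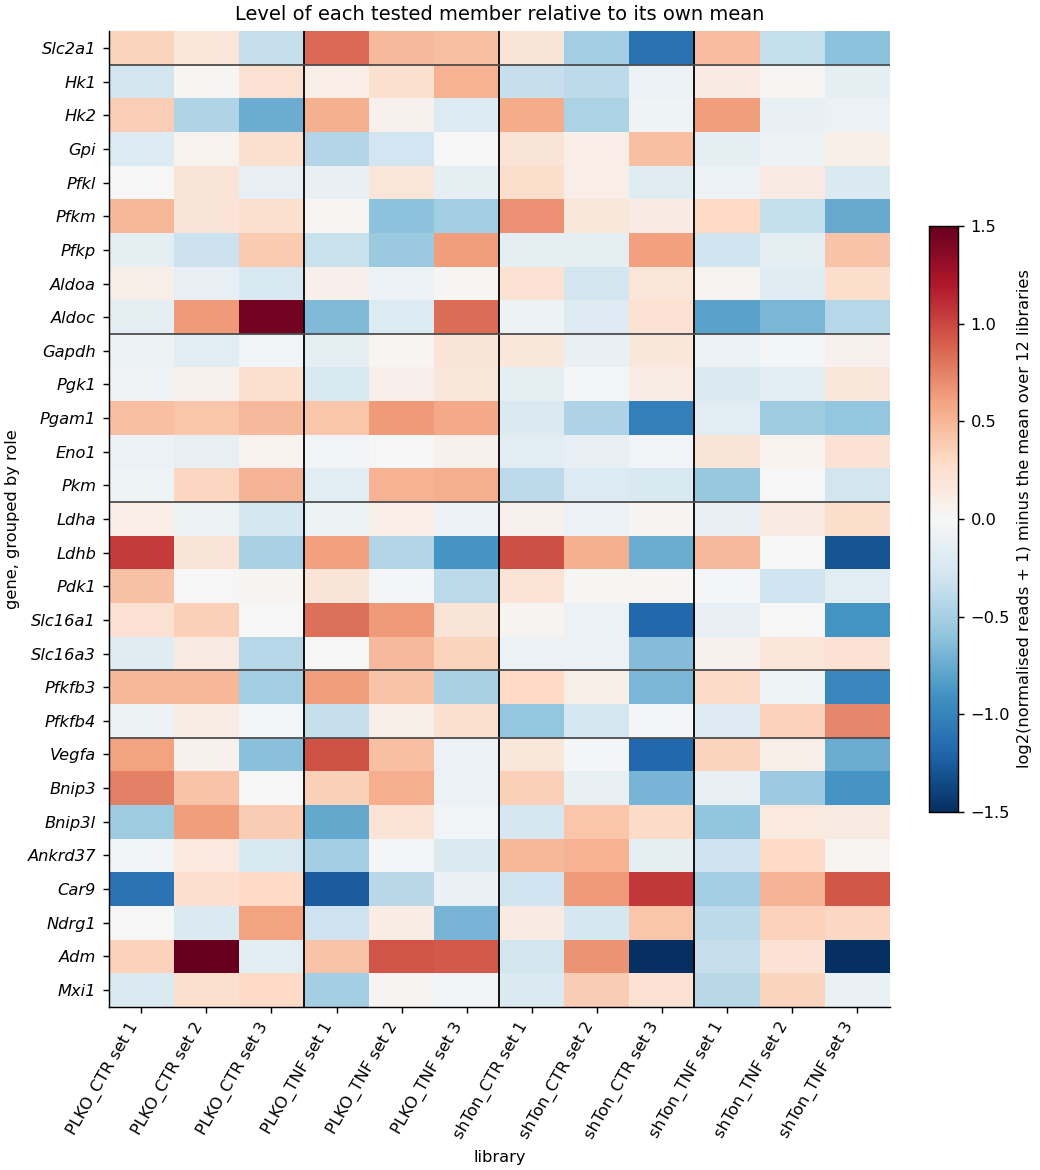
Level of each of the 29 tested members (rows, grouped by role) in each of the 12 libraries (columns), as log2(normalised reads + 1) minus the gene's mean over the libraries. Values beyond 1.5 in either direction take the end colour. Pgam1, Slc16a1, Pkm and Bnip3 are paler or bluer in the shTon columns and Car9 is redder, while Ldhb and Vegfa fade from set 1 to set 3 within each group.

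TNF-a moved few of the members in cells with the control vector. Between PLKO_TNF and PLKO_CTR, 4 of 29 members passed (13.8%), against 9.62% of the 12373 genes tested, so the share was near the background. Slc2a1 and Vegfa rose, to 1.46 and 1.34 times the control level, where 4.97% of genes rose. Pfkm and Aldoc fell, to 0.624 and 0.631 times that level, where 4.65% of genes fell. The median log2 fold change was -0.01 for the members and -0.01 for all genes. At an unadjusted p under 0.05 were 13 of the members and 29.0% of all genes. Groups did not overlap for 2 of 29 members, Slc2a1 and Pfkm (6.9%, against 11.5% of all genes). The authors' deposited table lists the same 4 members under 0.05, against 11.8% of its genes with an adjusted p.

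Slc2a1 encodes GLUT1, the basal glucose transporter. In sets 1, 2 and 3 it was at 1971, 1777 and 1229.6 in PLKO_CTR, 2825, 2201 and 2145 in PLKO_TNF, 1783, 1089 and 719.7 in shTon_CTR and 2157, 1221 and 1019 in shTon_TNF. All 3 PLKO_TNF libraries stood above all 3 PLKO_CTR libraries, with means of 2390.4 ± 378 and 1659 ± 384 (SD, n = 3). The log2 fold change was 0.54, SE 0.12, adjusted p = 0.038. The neuronal-type transporter gene Slc2a3 was near the floor in every library, at 8.79, 4.53 and 3.12 in PLKO_CTR, 8.03, 6.4 and 19 in PLKO_TNF, 3.77, 3.6 and 2.6 in shTon_CTR and 11.7, 5.89 and 9.08 in shTon_TNF. It was not tested.

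Vegfa encodes the main growth factor for blood vessels and is a classic hypoxia target. Its levels by set were 1939, 1338 and 825 in PLKO_CTR, 2479.6, 1746 and 1203 in PLKO_TNF, 1442, 1252 and 565 in shTon_CTR and 1611, 1357 and 765 in shTon_TNF. Groups overlapped, but the TNF library was the higher of its pair in 3 of 3 sets of PLKO cells (log2 fold change 0.43, SE 0.10, adjusted p = 0.0404).

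Pfkm is the muscle-type subunit gene of phosphofructokinase, the committed step of glycolysis. It was at 1124, 908 and 940.4 in PLKO_CTR, 807, 517 and 559 in PLKO_TNF, 1278, 894 and 867 in shTon_CTR and 977, 619.5 and 471 in shTon_TNF. Each PLKO_TNF library was below each PLKO_CTR library (log2 fold change -0.68, SE 0.11, adjusted p = 0.0176). The sum of the muscle markers was lower in the TNF library of 6 of 6 same-set pairs, and so were the sums of the nucleus pulposus, chondrocyte and fibroblast markers. In PLKO cells 2 of 14 muscle markers fell (Myod1 and Eno3), as did 1 of 9 fibroblast markers (Col3a1, -1.70, adjusted p = 0.00934) and 1 of 3 chondrocyte markers (Hapln1, -1.63, adjusted p = 0.00682). Of 9 nucleus pulposus markers 3 fell (Krt8, Lgals3 and Pax1) and 1 rose (Ibsp). Their part in the results on TNF-a was not tested. In set 3 the muscle, nucleus pulposus and fibroblast sums of PLKO cells were lowest, though Krt8 was highest. There the log2 ratio of Pfkm was -0.75. It was -0.48 in set 1 and -0.81 in set 2. The other subunit genes were Pfkl, the liver type, at 2506, 2853 and 2279 in PLKO_CTR, 2310.4, 2815 and 2247 in PLKO_TNF, 2980.5, 2672 and 2198 in shTon_CTR and 2336, 2712 and 2145 in shTon_TNF, and Pfkp, the platelet type, at 1039.7, 911 and 1491 in PLKO_CTR, 906, 776 and 1761 in PLKO_TNF, 1028, 1027 and 1741 in shTon_CTR and 926, 1041 and 1538 in shTon_TNF. Neither passed (log2 fold changes -0.05 and -0.06, adjusted p = 0.747 and 0.769). Of the reads on the 3 subunit genes, Pfkm took 21.2% ± 2.53 in PLKO_CTR and 15.0% ± 4.42 in PLKO_TNF (SD, n = 3), and 20.6% ± 3.22 and 16.2% ± 6.12 in shTon_CTR and shTon_TNF.

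Aldoc encodes the brain-type aldolase, which splits fructose bisphosphate. It stood at 321, 549 and 962 in PLKO_CTR, 221, 305 and 630.2 in PLKO_TNF, 334, 308 and 411 in shTon_CTR and 202, 218 and 262 in shTon_TNF. The TNF library was lower in 3 of 3 sets of PLKO cells, and the groups overlapped (log2 fold change -0.66, SE 0.12, adjusted p = 0.0212). Aldoa, the main aldolase gene, was at 12879.9, 11157 and 10283 in PLKO_CTR, 12753, 11396 and 12248 in PLKO_TNF, 14226, 9993 and 13758 in shTon_CTR and 12489, 10704 and 14518 in shTon_TNF and did not pass (log2 fold change 0.09, SE 0.13, adjusted p = 0.682). Aldoc held 5.23% ± 3.1 of the reads on both aldolase genes in PLKO_CTR and 3.07% ± 1.64 in PLKO_TNF.

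edgeR and DESeq2 with the block called the same 4 members, but the calls depended on the libraries used. Leaving out set 1 removed Slc2a1 and Vegfa (adjusted p = 0.0693 and 0.0527) and added Car9 and Hk2, leaving out set 2 kept Slc2a1 only, and leaving out set 3 kept Aldoc and Pfkm. With all 12 libraries in 1 fit only Pfkm passed (adjusted p = 0.025), and without the set as a block, or without the mean-variance trend, no member did.

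Counts by role showed no group of glycolysis enzymes moving as a whole. Slc2a1, the only glucose transporter among the tested members, passed and rose. Of 8 tested upper glycolysis members 2 passed, both lower (Pfkm and Aldoc). None of 5 lower glycolysis members, 5 members of pyruvate and lactate handling or 2 fructose bisphosphate regulators passed. Of 8 hypoxia targets outside glycolysis 1 passed, Vegfa. The other 7 did not pass: Car9, Bnip3l, Mxi1, Ndrg1, Bnip3, Ankrd37 and Adm had log2 fold changes of -0.40, -0.36, -0.28, -0.43, -0.13, -0.20 and 0.18, with adjusted p from 0.062 to 0.716. The sign turned without set 1 for Bnip3 (0.01), and without set 3 for Ndrg1 (0.01) and Adm (-0.28).

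**Figure D2:**
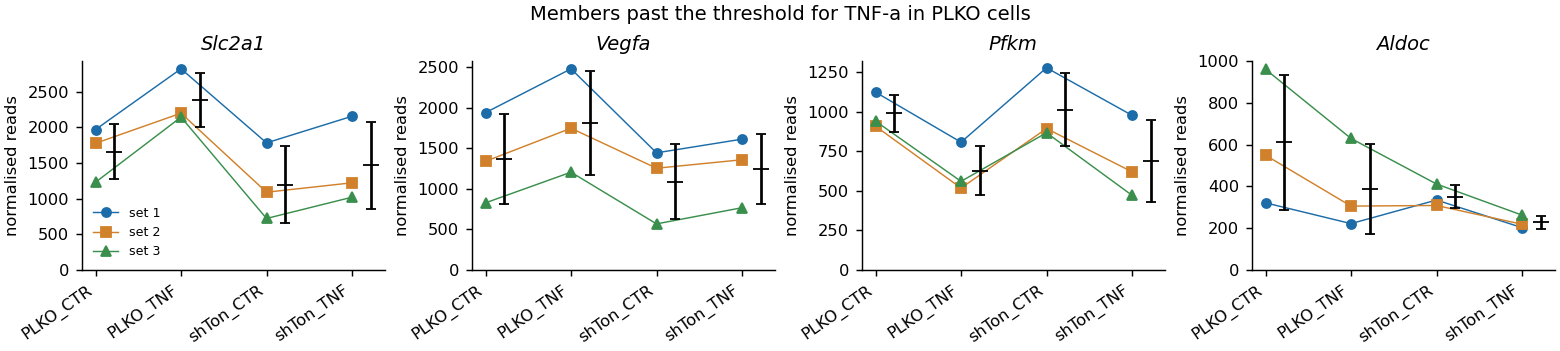
Normalised reads (joint scale, axis from 0) of the 4 members that passed for TNF-a in PLKO cells, by group. Points are libraries joined by set, and bars give the mean ± SD of 3 libraries. In PLKO cells each line for Slc2a1 and Vegfa rises with TNF-a and each line for Pfkm and Aldoc falls, and the sets keep their distance.

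Knockdown of TonEBP was compared in untreated cells (shTon_CTR against PLKO_CTR) and in treated cells (shTon_TNF against PLKO_TNF). In limma 0 of 29 members passed in either, where 0.113% of 12383 genes and 0.254% of 12213 genes passed. At an unadjusted p under 0.05 were 9 members without TNF-a and 10 with it, against 17.0% of genes in each. edgeR with the same block also called 0 members in both. limma with all 12 libraries in 1 fit called 0 members without TNF-a and 7 with it (Bnip3, Car9, Pgam1, Pkm, Slc16a1, Slc2a1 and Vegfa), where 444 of 12310 genes passed. Leaving out set 1 gave 4 members without TNF-a (Adm, Aldoc, Pgam1 and Slc2a1) and 6 with it (Adm, Bnip3, Car9, Pgam1, Slc16a1 and Slc2a1). There 283 of 12279 genes and 488 of 12092 genes passed. Leaving out set 2 gave 0 members without TNF-a and 1 with it (Adm), where 12 of 12362 and 157 of 12217 genes passed. Leaving out set 3 gave 2 members without TNF-a (Adm and Pgam1) and 0 with it, where 220 of 12350 and 32 of 12207 genes passed. DESeq2 with the block called 3 without TNF-a (Adm, Car9 and Pgam1) and 5 with it (Bnip3, Car9, Pgam1, Slc16a1 and Slc2a1). The authors' deposited tables list the same 3 and the same 5 under 0.05, where 3.59% and 3.31% of their genes with an adjusted p are listed. Groups did not overlap for 2 of 29 members without TNF-a (6.9%, against 9.9% of genes), Pgam1 and Pkm, both lower. With TNF-a they did not overlap for 4 (13.8%, against 12.9%), Pgam1, Slc16a1, Bnip3 and Adm, all lower.

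The 2 comparisons share no library, though they share the sets. Of 29 members 23 had the same sign in both (79.3%, against 74.2% of 12091 genes), 14 lower and 9 higher. Across these genes, which are not independent, Pearson's r of the 2 log2 fold changes was 0.915 for the members and 0.698 for all genes. Spearman's rho of the members was lower, at 0.776, and was not taken for all genes.

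A contrast that averages knockdown over both treatments, on all 12 libraries, was added after the members' values had been seen. It uses the libraries of both comparisons at once and is no separate evidence. There 10 of 29 members passed (34.5%), against 13.5% of 12310 genes. 9 fell (against 7.12% of genes that fell) and 1 rose, Car9 (against 6.38%). The members' median was 0.00 and that of all genes 0.02. By role, those that fell were the glucose transporter Slc2a1, 1 of 8 upper glycolysis members (Aldoc), 2 of 5 lower glycolysis members (Pgam1 and Pkm), 1 of 5 of pyruvate and lactate handling (Slc16a1), 1 of 2 fructose bisphosphate regulators (Pfkfb3) and 3 of 8 other hypoxia targets (Vegfa, Bnip3 and Adm). Without set 2 the contrast called 0 members and 0 genes of 12300 (2144 at an unadjusted p under 0.05), without set 1 it called 8 members and without set 3 it called 5. Those lost without set 1 were Vegfa (adjusted p = 0.0574) and Pfkfb3 (0.0539). Those lost without set 3 were Slc2a1 (0.0541), Pkm (0.0572), Vegfa (0.0653), Pfkfb3 (0.0796) and Aldoc (0.22). Without the 1 library that went against its label it called 11, the same 10 and Hk1, and without the block 0.

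Pgam1 encodes phosphoglycerate mutase, which moves a phosphate within phosphoglycerate in lower glycolysis. It was at 3350.1, 3260.2 and 3420.5 in PLKO_CTR, 3261, 3813 and 3643 in PLKO_TNF, 2104, 1773 and 1202 in shTon_CTR and 2181, 1695 and 1643 in shTon_TNF. All 6 PLKO libraries stood above all 6 shTon libraries. The log2 fold change was -1.02, SE 0.17, adjusted p = 0.085 without TNF-a and -0.96, SE 0.18, adjusted p = 0.0779 with it. In the averaged contrast it was -0.99, SE 0.12, adjusted p = 0.00221, a level of 0.503 times control. In treated cells, leaving out set 1 gave -1.16 (adjusted p = 0.00641), and Pgam1 did not pass without set 2 or without set 3.

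Pkm encodes the pyruvate kinase that ends glycolysis. Its range over the 12 libraries was 705 to 1529. It was lower in the shTon library of 6 of 6 pairs (averaged log2 fold change -0.56, SE 0.10, adjusted p = 0.00635). Gapdh, Pgk1 and Eno1, the other tested members of lower glycolysis, ranged over 904 to 1153, 6604 to 9139 and 1330.1 to 1725. None passed, with averaged log2 fold changes of 0.06, -0.09 and 0.05. Pgam1, Pkm, Gapdh, Pgk1, Eno1, Ldha and Aldoa have many processed copies in mammalian genomes. The labels do not say how reads that map to several places were handled, so these values are uncertain.

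Slc16a1 and Slc16a3 encode the monocarboxylate transporters MCT1 and MCT4, which carry lactate across the cell membrane. Slc16a1 was at 4327, 4735 and 3687 in PLKO_CTR, 6551, 5747 and 4217 in PLKO_TNF, 3799, 3471 and 1636 in shTon_CTR and 3387, 3681 and 1988 in shTon_TNF. Each shTon_TNF library was below each PLKO_TNF library, while the untreated groups overlapped. The log2 fold change was -0.61, SE 0.19, adjusted p = 0.183 without TNF-a and -0.89, SE 0.17, adjusted p = 0.08 with it, and -0.75, SE 0.12, adjusted p = 0.00509 when averaged. Slc16a3 was at 1425, 1778 and 1203 in PLKO_CTR, 1605, 2262 and 2036 in PLKO_TNF, 1523, 1519.6 and 1032 in shTon_CTR and 1688, 1838 and 1871 in shTon_TNF and did not pass (averaged log2 fold change -0.12, SE 0.12, adjusted p = 0.551). Of the reads on both genes, Slc16a1 took 74.4% ± 1.51, 73.2% ± 6.56, 67.4% ± 5.36 and 61.7% ± 8.78 in PLKO_CTR, PLKO_TNF, shTon_CTR and shTon_TNF (SD, n = 3).

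Slc2a1, whose library values stand above, was lower in the shTon library of 6 of 6 pairs. Its log2 fold change was -0.55, SE 0.15, adjusted p = 0.151 without TNF-a, -0.77, SE 0.18, adjusted p = 0.115 with it, and -0.66, SE 0.12, adjusted p = 0.00824 when averaged. In treated cells, sets 2 and 3 alone gave -0.96 (adjusted p = 0.0175), and Slc2a1 did not pass without set 2 or without set 3. Aldoc was lower in 5 of 6 pairs (averaged -0.65, SE 0.17, adjusted p = 0.0335). Without set 3 the averaged value was -0.35 (adjusted p = 0.22), and without the mean-variance trend it did not pass. In set 1 without TNF-a it was slightly higher, with a log2 ratio of 0.05, against -0.84 and -1.22 in sets 2 and 3.

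Among regulators, Pfkfb3 encodes a bifunctional enzyme that makes the strong activator of phosphofructokinase, a fructose bisphosphate distinct from the one that aldolase splits. It was at 539, 537 and 265 in PLKO_CTR, 590.3, 514 and 273 in PLKO_TNF, 468, 407 and 237 in shTon_CTR and 467, 363 and 194 in shTon_TNF, lower in the shTon library of 6 of 6 pairs (averaged -0.35, SE 0.09, adjusted p = 0.0228). Pfkfb4, a relative, was low, at 15.1, 17.4 and 15.6 in PLKO_CTR, 12.3, 17.1 and 19 in PLKO_TNF, 10.4, 13.2 and 15.6 in shTon_CTR and 13.9, 20.6 and 27.3 in shTon_TNF. Its signs differed between treatments, with log2 fold changes of -0.30, SE 0.35, adjusted p = 0.708 without TNF-a and 0.31, SE 0.36, adjusted p = 0.702 with it.

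Car9 encodes carbonic anhydrase 9, a membrane enzyme of acid export and a standard hypoxia marker. It was at 1581, 4054 and 4216 in PLKO_CTR, 1443, 2560.3 and 3191 in PLKO_TNF, 2771, 5296 and 7147 in shTon_CTR and 2374, 4863 and 6519.6 in shTon_TNF. The shTon library was the higher one in 6 of 6 pairs, and groups overlapped, with set 1 the lowest in each. The log2 fold change was 0.65, SE 0.14, adjusted p = 0.0984 without TNF-a and 0.90, SE 0.16, adjusted p = 0.0775 with it. In the averaged contrast it was 0.77, SE 0.09, adjusted p = 0.00221, or 1.71 times control. With TNF-a and without set 1 it was 0.98 (adjusted p = 0.0264), and Car9 did not pass there without set 2 or without set 3. Its relative Car12 was at 3.02 ± 1.98 in PLKO_CTR and 6.73 ± 6.10 in shTon_CTR (SD, n = 3) in its 1 table, too low to be tested.

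Bnip3 and Bnip3l encode receptors for removal of mitochondria. Bnip3 was at 1154, 919 and 680.4 in PLKO_CTR, 871, 996 and 639 in PLKO_TNF, 871, 629.7 and 418 in shTon_CTR and 624, 464 and 369 in shTon_TNF. The 3 shTon_TNF libraries lay below the 3 PLKO_TNF libraries, and the averaged log2 fold change was -0.67, SE 0.10, adjusted p = 0.0041. Bnip3l was at 1378, 3074 and 2587 in PLKO_CTR, 1172, 2288 and 1932 in PLKO_TNF, 1675, 2657 and 2427 in shTon_CTR and 1319, 2207 and 2197 in shTon_TNF and did not pass (averaged 0.05, SE 0.08, adjusted p = 0.753).

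Adm encodes adrenomedullin, a vasoactive peptide. It varied widely, at 1189.7, 2788 and 835 in PLKO_CTR, 1259.6, 1795 and 1773 in PLKO_TNF, 774, 1496 and 230.3 in shTon_CTR and 734, 1085 and 189 in shTon_TNF. It was lower in the shTon library of 6 of 6 pairs, and set 3 carried the largest drop: with TNF-a its log2 ratio was -3.22, against -0.77 and -0.72 in sets 1 and 2. The log2 fold change was -1.13, SE 0.22, adjusted p = 0.0933 without TNF-a and -1.57, SE 0.44, adjusted p = 0.153 with it, and -1.35, SE 0.31, adjusted p = 0.0186 when averaged. Without set 3 the averaged value was -0.76 (adjusted p = 0.0256). For Vegfa, lower in 6 of 6 pairs, the averaged log2 fold change was -0.45, SE 0.09, adjusted p = 0.0109.

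**Figure D3:**
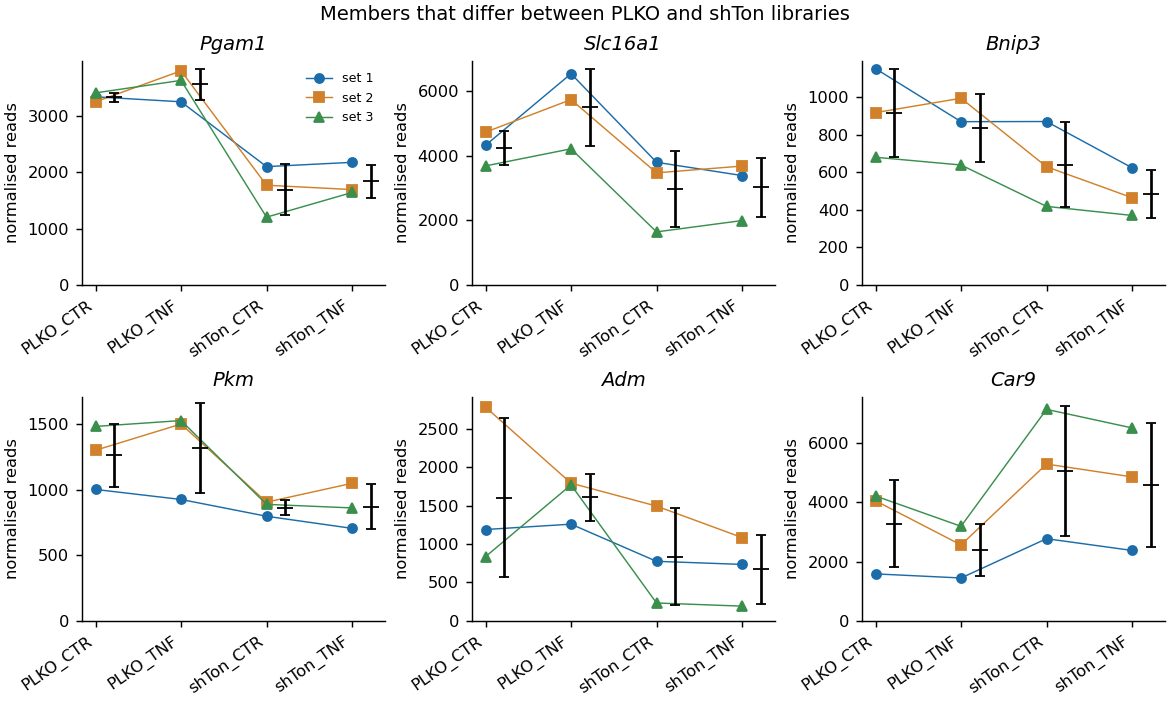
Normalised reads (joint scale, axis from 0) of 6 members called in the averaged knockdown contrast, by group. Points are libraries joined by set, and bars give the mean ± SD of 3 libraries. Pgam1 separates the vectors without overlap, Car9 is higher in shTon libraries of every set, and the low values of Adm in set 3 stand out.

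Hypoxia targets as a group did not follow 1 direction with knockdown. While Vegfa, Bnip3 and Adm fell and Car9 rose, Ankrd37, a hypoxia-induced ankyrin repeat gene, was at 51.5, 58.9 and 44.7 in PLKO_CTR, 37, 52.3 and 45.6 in PLKO_TNF, 75.4, 76.8 and 48.2 in shTon_CTR and 42.7, 65.8 and 54.5 in shTon_TNF. It was higher in 6 of 6 pairs without passing (averaged 0.30, SE 0.16, adjusted p = 0.244). Ndrg1, a stress and differentiation gene, was at 807, 698 and 1233 in PLKO_CTR, 651, 874 and 499.6 in PLKO_TNF, 879.8, 673 and 1081 in shTon_CTR and 616, 1029.9 and 1002 in shTon_TNF. Mxi1, a repressor of the Myc network, was at 548, 749 and 782 in PLKO_CTR, 448, 653 and 619 in PLKO_TNF, 546, 826 and 743 in shTon_CTR and 475, 799 and 592 in shTon_TNF. Neither passed (averaged 0.17 and 0.06). Pdk1, the mitochondrial kinase that inhibits pyruvate dehydrogenase, was at 686, 507 and 518 in PLKO_CTR, 577, 497 and 382 in PLKO_TNF, 583, 509.7 and 511 in shTon_CTR and 493, 408 and 451 in shTon_TNF and did not pass either (averaged -0.09, SE 0.09, adjusted p = 0.579).

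The hexokinases and lactate dehydrogenases showed no call for knockdown. Hk1, the constitutive hexokinase, was at 1956, 2399 and 2779 in PLKO_CTR, 2547, 2808 and 3399 in PLKO_TNF, 1861, 1804 and 2239.7 in shTon_CTR and 2574, 2405 and 2151 in shTon_TNF. Hk2, the inducible one, was at 1459, 829 and 674 in PLKO_CTR, 1642, 1184 and 983 in PLKO_TNF, 1673, 816 and 1085 in shTon_CTR and 1754, 1048 and 1066 in shTon_TNF, with its highest values in set 1. Their averaged log2 fold changes were -0.28, SE 0.10, adjusted p = 0.102 for Hk1 and 0.15, SE 0.10, adjusted p = 0.37 for Hk2. Ldha, which favours lactate formation, was at 2443, 2154 and 1899 in PLKO_CTR, 2162, 2439 and 2148 in PLKO_TNF, 2371, 2148 and 2349 in shTon_CTR and 2096, 2467 and 2736 in shTon_TNF. Ldhb, the heart-type subunit, was at 505, 279 and 174 in PLKO_CTR, 374, 179 and 132 in PLKO_TNF, 478, 351 and 144 in shTon_CTR and 343, 244 and 98.4 in shTon_TNF, highest in set 1 and lowest in set 3 in each group. Their averaged values were 0.10 and -0.02. Gpi, the isomerase that turns glucose phosphate into fructose phosphate, ranged over 3510.1 to 6482. It was higher in the shTon library of 6 of 6 pairs without passing (averaged 0.21, SE 0.08, adjusted p = 0.111).

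**Figure D4:**
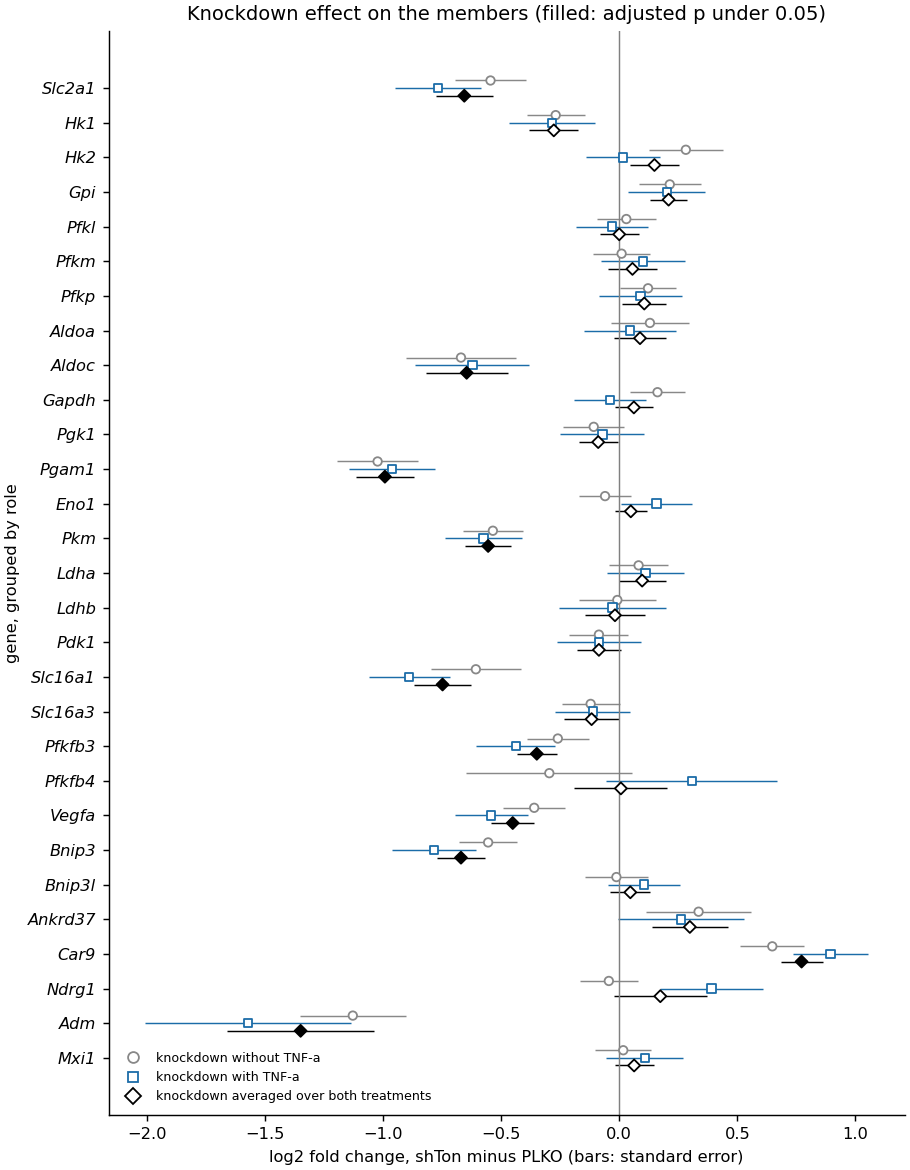
Log2 fold change of knockdown (shTon minus PLKO) for each tested member without TNF-a, with TNF-a and averaged over both. Bars are standard errors, and a filled symbol marks an adjusted p under 0.05. 10 averaged values are filled, of which Car9 alone lies to the right of 0.

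Marker sums of other cell types also differed by vector. In the averaged contrast 0 of 14 muscle markers and 0 of 9 nucleus pulposus markers passed in limma, while 3 of 9 fibroblast markers (Col1a1, Col1a2 and Col3a1) and 2 of 3 chondrocyte markers (Col11a2 and Comp) rose. Col3a1 also rose with knockdown in treated cells (1.53, SE 0.21, adjusted p = 0.0389). The muscle sum was higher in the shTon library of 5 of 6 same-set pairs, and so were the sums of 9 fibroblast markers, 9 nucleus pulposus markers and 3 chondrocyte markers. Over the groups the muscle sum ranged from 623 to 54374 in PLKO_CTR, 372 to 42571 in PLKO_TNF, 722 to 96333 in shTon_CTR and 533 to 79455 in shTon_TNF. Their part in the results on knockdown was not tested. In set 3 the muscle sum was 372 to 722 and the fibroblast sum 30007 to 44539, both the lowest of the sets. There the log2 ratios without and with TNF-a were -1.51 and -1.15 for Pgam1, -1.17 and -1.09 for Slc16a1, and 0.76 and 1.03 for Car9, each from 1 pair of libraries. In sets 1 and 2 these ratios ran from -1.17 to -0.57 for Pgam1, from -0.94 to -0.19 for Slc16a1 and from 0.38 to 0.93 for Car9.

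In shTon cells, TNF-a (shTon_TNF against shTon_CTR) moved 0 of 29 members past the limma threshold, against 3.28% of 12339 genes. At an unadjusted p under 0.05 were 6 members and 18.8% of genes, and edgeR and DESeq2 with the block also called 0 members. Groups did not overlap for 5 members (17.2%, against 10.5% of genes): Gpi, Aldoc and Pdk1 were lower, and Eno1 and Slc16a3 higher. The largest differences were those of Aldoc (-0.62, SE 0.14, adjusted p = 0.0671), Pfkm (-0.60, SE 0.14, adjusted p = 0.0753) and Pfkfb4 (0.59, SE 0.32, adjusted p = 0.373). Without set 1, which holds the library that went against its label, Pfkm and Slc16a3 passed.

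Whether TNF-a acted differently with each vector was tested as an interaction over all 12 libraries. limma, edgeR and DESeq2 each called 0 of 12310 genes. For limma 219 genes (1.78%) and 0 members had an unadjusted p under 0.05. Without the library labelled shTon_TNF of set 1, limma again called 0 genes, with 245 at an unadjusted p under 0.05. The largest interaction values among members were those of Pfkfb4 (0.59, SE 0.39, adjusted p = 0.999), Adm (-0.45, SE 0.62, adjusted p = 0.999) and Ndrg1 (0.42, SE 0.39, adjusted p = 0.999). For the 4 members that TNF-a moved in PLKO cells they were -0.23 (SE 0.24) for Slc2a1, -0.19 (SE 0.18) for Vegfa, 0.08 (SE 0.20) for Pfkm and 0.04 (SE 0.35) for Aldoc. So a call in PLKO cells and none in shTon cells was not a measured difference between them.

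The effect of TNF-a averaged over both vectors was another contrast added after the values had been seen. It called 8 of 29 members (27.6%), against 15.0% of genes. Slc2a1 (0.43, SE 0.12, adjusted p = 0.0384), Slc16a3 (0.43, SE 0.12, adjusted p = 0.0349) and Vegfa (0.33, SE 0.09, adjusted p = 0.0325) rose, where 7.55% of genes did. Pfkm (-0.64, SE 0.10, adjusted p = 0.00301), Aldoc (-0.64, SE 0.17, adjusted p = 0.032), Ldhb (-0.50, SE 0.13, adjusted p = 0.0252), Bnip3l (-0.31, SE 0.08, adjusted p = 0.035) and Gpi (-0.28, SE 0.08, adjusted p = 0.0418) fell, where 7.44% of genes did. Each of the 8 moved the same way in 6 of 6 same-set pairs. Without set 2 the contrast called 0 members and 163 genes (1759 at an unadjusted p under 0.05), without set 1 it called 4 (Aldoc, Pfkm, Slc16a3 and Slc2a1) and without set 3 it called 3 (Aldoc, Ldhb and Pfkm). Without set 3 the value of Slc16a3 was 0.24 (adjusted p = 0.195). Without the library that went against its label it called 7, with Slc2a1 at an adjusted p of 0.0595.

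Among sets 16 of 29 members passed limma's F test (55.2%), near the 45.4% of all 12310 genes. The mean level of Vegfa over the 4 libraries of a set, 1 per group, was 1868 ± 457, 1423 ± 220.0 and 839 ± 267 for sets 1, 2 and 3 (SD, n = 4, limma adjusted p = 4.27e-05). Ldhb had 425 ± 78.7, 264 ± 71.7 and 137 ± 31.2 (adjusted p = 5.55e-05). Car9 ran the other way, with 2042 ± 636, 4194 ± 1204 and 5269 ± 1872 (adjusted p = 1.28e-05). Vegfa, Pfkfb3 and Ldhb were thus highest in set 1, which had the highest sums of both muscle and nucleus pulposus markers. Krt8, one of the nucleus pulposus markers, ran against that sum and was highest in set 3. Pfkp was highest in set 3, and Bnip3l was lowest in set 1. The part of cell types in these levels was not tested. Pgam1, which separated the vectors, did not pass among sets (adjusted p = 0.361), nor did Ldha (0.984), Gapdh (0.364) or Eno1 (0.459).

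**Figure D5:**
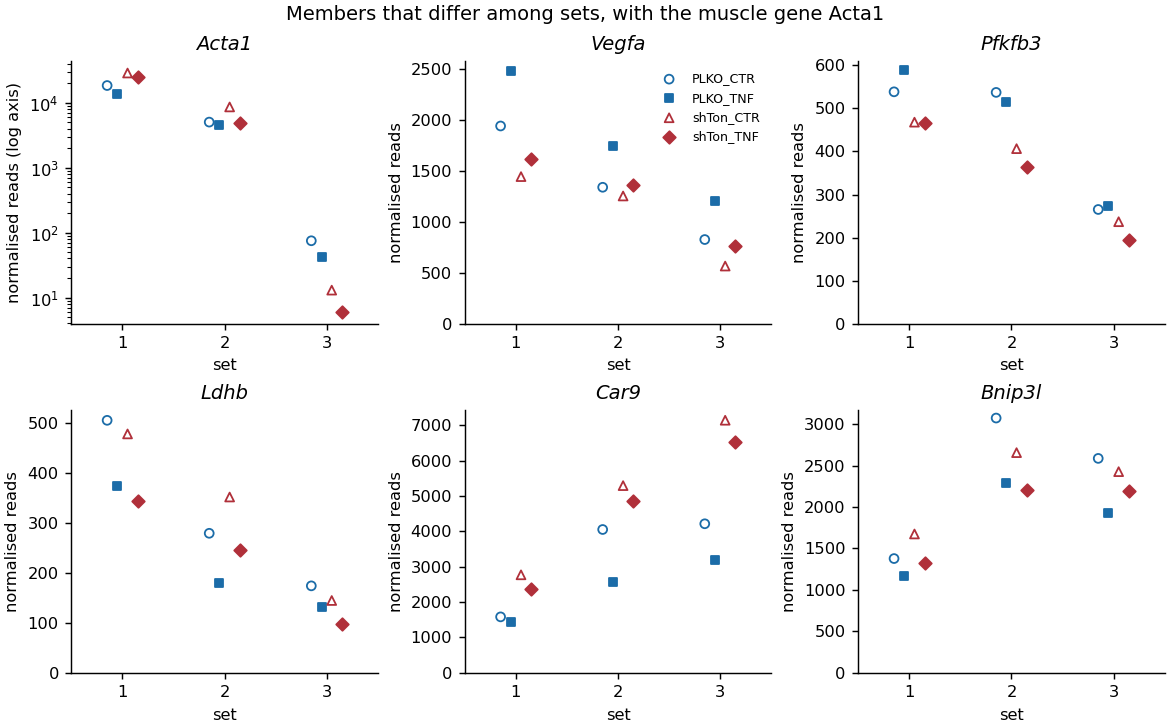
Normalised reads by set for the muscle actin gene Acta1 (log axis) and for 5 members that differed among sets (axes from 0), 1 point per library, with symbols for the groups. Vegfa, Pfkfb3 and Ldhb fall from set 1 to set 3 as Acta1 does, Car9 is lowest in set 1 and Bnip3l is low in set 1 only.

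Genes around the members were read from fixed lists. Of 18 tested regulators of hypoxia-inducible factor, 3 passed for TNF-a in PLKO cells (16.7%, against 9.62% of all genes): Cited2, an inhibitor of its coactivators, rose (0.73, SE 0.10, adjusted p = 0.01), Egln3, an oxygen-sensing prolyl hydroxylase and itself a hypoxia target, rose (0.82, SE 0.16, adjusted p = 0.0285), and Arnt2 fell (-0.92, SE 0.15, adjusted p = 0.0197). With knockdown 1 of the 18 passed in treated cells (5.56%, against 0.254%), Egln3, which fell (-1.20, SE 0.16, adjusted p = 0.0389), and 0 in untreated cells, where Egln3 had the smallest p (-1.05, SE 0.13, adjusted p = 0.0558). Egln3 was at 988, 1172 and 964 in PLKO_CTR, 1486, 1721 and 2393 in PLKO_TNF, 409, 662 and 469 in shTon_CTR and 572, 875 and 993 in shTon_TNF, lower in the shTon library of 6 of 6 pairs and higher in the TNF library of 6 of 6. In the averaged knockdown contrast 4 of 18 passed (22.2%, against 13.5% of all genes). All 4 were lower, where 7.12% of genes fell: Egln3 (-1.13, adjusted p = 0.00221), Arnt, the common beta subunit (-0.78, adjusted p = 0.00482), Egln1 (-0.50, adjusted p = 0.0116) and Cited2 (-0.41, adjusted p = 0.0357). Hif1a, the alpha subunit gene, was at 5161, 6176 and 8127 in PLKO_CTR, 5538, 5063 and 7432 in PLKO_TNF, 5279, 5299 and 7228 in shTon_CTR and 4291, 3875 and 5793 in shTon_TNF and did not pass there (-0.25, SE 0.08, adjusted p = 0.0801).

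Of 14 tested other glycolysis genes 3 passed for TNF-a in PLKO cells (21.4%, against 9.62% of all genes). Slc2a6, a transporter of inflammatory cells, rose (1.23, SE 0.26, adjusted p = 0.0357), while Slc2a12 (-1.44, SE 0.29, adjusted p = 0.0318) and the muscle enolase gene Eno3 (-0.77, SE 0.145, adjusted p = 0.0264) fell. Eno3 was also the 1 gene of this list that fell in shTon cells (-0.63, SE 0.13, adjusted p = 0.049). Of 17 pyruvate, lactate and pyruvate dehydrogenase genes 1 passed (5.88%), Pdk3, which fell (-0.51, SE 0.12, adjusted p = 0.0455). None of 10 pentose phosphate genes or 17 genes of the tricarboxylic acid cycle passed in any of the 4 comparisons of groups, with medians in PLKO cells of 0.33 and -0.03 against -0.01 for all genes. With knockdown no gene of these 4 lists passed in treated or untreated cells. The smallest adjusted p among them were those of Me1, which makes NADPH from malate (-0.93, SE 0.16, adjusted p = 0.085 without TNF-a), and Suclg2, a subunit of succinyl-CoA ligase (-1.08, SE 0.25, adjusted p = 0.117 with it).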

How the data were processed

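RNA sequencing was analysed in 12 libraries, 3 in each of 4 groups, from 3 tables with 13373, 13305 and 13176 genes. Novoalign 2.08.01, DESeq2 and the build rn5 are named by the submitters' processing notes. The counter, annotation, strand setting and treatment of multiply mapped reads are not named there or in the labels. The deposited signal is normalised reads, read counts divided by 1 factor per library, per the file headers and the values: all values came out as whole reads within 0.001 read. The authors' log2 differences and p-values, adjusted by them per the file headers, were used only where named. Each table was scaled by itself. For values across tables, the recovered reads of the 12899 genes common to the tables were scaled together with DESeq2 size factors.

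Comparisons were fitted with limma 3.58.1 in R 4.3.3 on log2(value + 1), with a mean-variance trend, for genes averaging 10 or more normalised reads, and adjusted by the Benjamini-Hochberg method. The set was a block in the fit: deviations from the group means correlated at 0.609 to 0.889 in the 18 same-set pairs of libraries from different groups, and at -0.741 to 0.18 in the 36 pairs of different sets, over 12310 genes. The set number comes from the sample titles. Groups were taken from the labels. Alternatives were a fit without the block, another pseudocount (0.5), no filter, no trend, TMM scaling, edgeR 4.0.16 and DESeq2 1.42.0 on the recovered reads, each set left out, and all libraries in 1 fit. The scripts were tested on simulated data: 2-fold changes were recovered in 98% of genes for TNF-a in PLKO cells and in 67% for the interaction. For averaged knockdown 8.68% of the calls were false. The simulated spread was fixed for all genes, a change was equal in every set, and only genes with many reads were changed. These shares therefore check the scripts and do not give the power in these data.

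Values by library were given for members that passed in a comparison of groups, for the 3 largest differences in each, and for isoform pairs and well-known hypoxia targets. For other lists, up to 3 called genes with the largest change, or the gene with the smallest p, were named. Members and lists were chosen with earlier results of these data known. Genes were matched by symbol, and promoter windows by symbol to RefSeq GRCr8, with Python 3.11.15. Some results for the lists beyond the members are not reported here.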

Additional observations from a re-analysis of the deposited data

How the results depend on the processing

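Without the set as a block, 0 members and 0 genes passed for TNF-a in PLKO cells and for knockdown in untreated, treated and averaged form, 6 genes for TNF-a in shTon cells, and 0 members and 167 genes for averaged TNF-a. Without the mean-variance trend, 0 members and 55 genes passed for TNF-a in PLKO cells, 0 genes for either knockdown comparison, 143 genes for TNF-a in shTon cells, and 2 members for averaged TNF-a. DESeq2 called 3 members and 403 genes for knockdown without TNF-a, 5 and 363 with it, and 613 genes for TNF-a in shTon cells. With all 12 libraries in 1 fit, 1 member and 696 genes passed for TNF-a in PLKO cells, 3 genes for knockdown without TNF-a, and 7 members and 444 genes with it. Leaving out each set in turn gave 1 to 4 members and 545 to 1410 genes for TNF-a in PLKO cells, 0 to 4 members and 12 to 283 genes for knockdown without TNF-a, 0 to 6 members and 32 to 488 genes for knockdown with TNF-a. It gave 0 to 2 members and 317 to 1105 genes for TNF-a in shTon cells, 0 to 8 members and 0 to 1658 genes for knockdown averaged over both treatments, 0 to 4 members and 163 to 1781 genes for TNF-a averaged over both vectors. Fewer libraries stood in each of these fits, and the cause was not tested. Without the library labelled shTon_TNF of set 1, 11 members and 1908 genes passed for averaged knockdown, and 7 members and 2401 genes for averaged TNF-a. The interaction had 0 calls in every fit tried.

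The sign of a single member changed 93 times, in 55 of the values for a member in a comparison. In 0 of these did the value pass in the report or under the alternative, and in 89 of them it lay within 1 SE of 0. Of the changes, 76 came from leaving out libraries. Log2 values with sets or the library left out (lowest to highest), or under the tool named, were as follows. For TNF-a in PLKO cells they were Adm -0.28 to 0.58, Bnip3 -0.25 to 0.013, Ldha 0.000 to 0.18, Ndrg1 -0.81 to 0.006, Pfkfb3 -0.011 to 0.085, Pfkfb4 -0.15 to 0.12, Pfkp -0.22 to 0.021, Pkm -0.036 to 0.12. For knockdown without TNF-a they were Aldoa -0.015 to 0.28, Bnip3l -0.15 to 0.092, Ldha -0.031 to 0.15, Ldhb -0.17 to 0.12, Mxi1 -0.042 to 0.061, Ndrg1 -0.12 to 0.029, Pfkl -0.077 to 0.096, Pfkm -0.074 to 0.074. For knockdown with TNF-a they were Aldoa -0.053 to 0.11, Gapdh -0.089 to 0.008, Hk2 -0.033 to 0.11, Ldha -0.006 to 0.18, Ldhb -0.27 to 0.17, Pdk1 -0.25 to 0.011, Pfkp -0.078 to 0.23, Pgk1 -0.12 to 0.010. For TNF-a in shTon cells they were Aldoa -0.055 to 0.088, Aldoa 0.005 (TMM), Aldoa 0.004 (edgeR), Ndrg1 -0.31 to 0.25, Ndrg1 0.005 (TMM), Ndrg1 0.003 (edgeR), Pgam1 -0.007 to 0.25, Pkm -0.11 to 0.084, Pkm 0.005 (TMM), Pkm 0.005 (edgeR), Slc16a1 -0.041 to 0.18. For interaction of TNF-a and knockdown they were Adm -0.76 to 0.006, Aldoc -0.13 to 0.15, Ankrd37 -0.20 to 0.069, Gpi -0.11 to 0.033, Gpi 0.002 (edgeR), Hk1 -0.13 to 0.14, Hk1 0.014 (edgeR), Ldhb -0.099 to 0.034, Pdk1 -0.14 to 0.13, Pdk1 0.005 (edgeR), Pfkl -0.12 to 0.013, Pfkm -0.047 to 0.19, Pfkp -0.19 to 0.15, Pgam1 -0.10 to 0.23, Pgk1 -0.023 to 0.12, Slc16a3 -0.048 to 0.038, Slc16a3 -0.004 (TMM), Slc16a3 -0.013 (DESeq2). For knockdown averaged over both treatments they were Aldoa -0.034 to 0.20, Bnip3l -0.042 to 0.14, Ldha -0.019 to 0.17, Ldhb -0.22 to 0.14, Mxi1 -0.014 to 0.13, Pfkfb4 -0.12 to 0.096, Pfkfb4 0.000 (TMM), Pfkfb4 0.000 (edgeR), Pfkl -0.067 to 0.037, Pfkl 0.001 (edgeR), Pfkl 0.003 (DESeq2), Pfkm -0.032 to 0.17. For TNF-a averaged over both vectors they were Adm -0.27 to 0.20, Adm 0.029 (edgeR), Adm 0.041 (DESeq2), Aldoa -0.018 to 0.12, Gapdh -0.045 to 0.10, Ndrg1 -0.56 to 0.029, Pkm -0.074 to 0.10. Slc2a3 and Car12 had too few reads to be tested. Groups of 3, sets that the labels do not define and 1 library that goes against its label limit every knockdown value.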

Other observations

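Hypoxia targets that are not members also moved in both directions with knockdown. When both treatments were averaged, 14 of 39 tested passed, 5 higher and 9 lower (35.9%, against 13.5% of all genes) and their median was -0.02 on the log2 scale. The collagen-modifying genes Loxl2 (0.79, SE 0.10, adjusted p = 0.00221) and P4ha2 (0.79, SE 0.11, adjusted p = 0.00272) rose by limma. Hmox1, the heme-degrading oxygenase, fell (-1.19, SE 0.20, adjusted p = 0.00612). Hmox1 was at 2653, 1354 and 1144 in PLKO_CTR, 5167, 3904 and 6541 in PLKO_TNF, 1510.0, 1103 and 863 in shTon_CTR and 2649, 1188 and 843 in shTon_TNF in sets 1, 2 and 3. All 3 PLKO_TNF libraries stood above all 3 shTon_TNF libraries. With TNF-a in PLKO cells 9 of the 39 passed, 6 higher and 3 lower (23.1%, against 9.62%), led by Hmox1 (1.67, SE 0.26, adjusted p = 0.0171), Fam13a (-1.24, SE 0.24, adjusted p = 0.0269) and Tgfb3 (-1.13, SE 0.23, adjusted p = 0.0295). Rbpj stands under 2 gene identifiers and is counted under both, and Egln3 and Cited2 also belong to the regulators of hypoxia-inducible factor.

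A list of osmoprotective genes linked to TonEBP, which counts Nfat5 itself, had 8 tested genes. Of these 1 passed for TNF-a in PLKO cells (12.5%, against 9.62% of all genes) and 1 for knockdown with TNF-a (12.5%, against 0.254%). It was Akr1b8, an aldo-keto reductase, in both. Its relative Akr1b1 passed in neither (0.84, SE 0.21, adjusted p = 0.0504 and -0.66, SE 0.17, adjusted p = 0.135 by limma). Akr1b8 was at 35911, 2616 and 4155 in PLKO_CTR, 50039.8, 19269 and 29309 in PLKO_TNF, 12210.1, 1396 and 2206 in shTon_CTR and 16497, 4948 and 5694 in shTon_TNF. It rose with TNF-a (2.06, SE 0.44, adjusted p = 0.0362) and was lower with knockdown in treated cells (-1.97, SE 0.23, adjusted p = 0.0314), and these comparisons share the PLKO_TNF libraries. Around glycolysis, in the averaged knockdown contrast, Suclg2 of the tricarboxylic acid cycle fell (-1.15, SE 0.22, adjusted p = 0.00919), while Cs, the citrate synthase gene, rose (0.35, SE 0.10, adjusted p = 0.0407). Me1 fell (-0.998, SE 0.18, adjusted p = 0.00702) and Pdk2 rose (0.48, SE 0.14, adjusted p = 0.0489) among 17 pyruvate genes (11.8%, against 13.5% of all genes). These averaged values share all 12 libraries with the report's contrast, which lost every call without set 2.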
